A study of Mus musculus with 18 samples.

Results

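The 10 genes described here encode enzymes of the methionine cycle and of choline phospholipid synthesis in mouse liver: Mat1a, Mat2a and Mat2b (methionine adenosyltransferases), Gnmt, Pemt and Ahcy (methyl transfer and its by-product), Bhmt (remethylation of homocysteine), Cbs and Cth (transsulfuration), and Chpt1 (the CDP-choline route). They were chosen by symbol from the 54752 genes of a table of estimated counts, all 10 were found there, and all 10 were among the 21840 genes that passed the filter on low counts. RNA was measured in the livers of 18 male C57BL/6 mice, 6 in each of 3 groups. CCl4_PTH mice were given PTH into the stomach every day and carbon tetrachloride (CCl4), a solvent that injures hepatocytes, into the peritoneum 2 times per week. CCl4 mice were given the same CCl4 with double distilled water in place of PTH. Control mice were given that water and, at the same rate as CCl4, olive oil. All mice were 6 weeks old at the start, and the liver was taken in week 22. The labels write both PTH and PZH, taken here as 1 preparation, Pien Tze Huang, a traditional Chinese medicine. They call the CCl4 mice a liver cancer model, but state neither the tumour content of the piece of liver nor the time since the last injection. The 6 mice of each group were picked from 15, and the labels do not say how. Libraries carry the numbers of their labels.

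The libraries held 67229863 to 118877267 counts, of which ribosomal RNA loci took 30.6% to 55.8%. Levels are in CPM, the usual depth-scaled count, here with TMM factors. Within the CCl4_PTH group, library 1 stood apart. Its 6 neutrophil markers summed to 168 CPM against 11.7 to 19.7 CPM in the other 5 libraries, and its 7 pericentral hepatocyte markers to 1356 CPM against 2348 to 3394 CPM. Test results of the members that rest on it are given with and without it, and ranges and SDs include it. The liver label was borne out by the hepatocyte markers, of which all 7 in the table were present in every group, with Alb among them.

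S-adenosylmethionine, the methyl donor of the cell, is made from methionine by methionine adenosyltransferase, and the liver is its main site of synthesis. Each methyl transfer leaves S-adenosylhomocysteine, which is split to homocysteine. Homocysteine is either methylated back to methionine, with betaine or folate as donor, or passed through cystathionine to cysteine. Phosphatidylcholine, the main phospholipid of membranes and lipoproteins, comes from the CDP-choline route in all tissues and, in hepatocytes, also from methylation of phosphatidylethanolamine, which draws on S-adenosylmethionine.

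The promoters of the genes that the results turn on are shown first, as the 250 bases before the transcription start in RefSeq (GRCm38.p6, minus strand of the chromosome for each). Chpt1 and Pemt were the members called in both comparisons with CCl4 livers, and Mat2a and Bhmt, called in neither, stand beside them. The windows are chr10:88503971-88504220 for Chpt1, chr11:60040189-60040438 and chr11:60037006-60037255 for the 2 starts of Pemt, chr6:72439557-72439806 for Mat2a and chr13:93637759-93638008 for Bhmt. The GENCODE M21 span of Pemt (chr11:59970614-60046489) reaches upstream of both its windows, so a start at its outer end is not shown. Capitals mark matches on either strand to the TATA box letters TATAAA, the CCAAT box letters CCAAT, the GC box letters GGGCGG, the E-box letters CACGTG, the letters CAAAGTCCA and the letters TTGCNNAA. Neighbouring matches can overlap and then form 1 run of capitals.
Chpt1: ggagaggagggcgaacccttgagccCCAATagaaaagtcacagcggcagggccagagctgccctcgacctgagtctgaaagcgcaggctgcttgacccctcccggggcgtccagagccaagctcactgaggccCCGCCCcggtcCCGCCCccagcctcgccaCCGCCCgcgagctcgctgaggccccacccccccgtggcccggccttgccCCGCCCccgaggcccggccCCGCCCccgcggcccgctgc
Pemt, first start: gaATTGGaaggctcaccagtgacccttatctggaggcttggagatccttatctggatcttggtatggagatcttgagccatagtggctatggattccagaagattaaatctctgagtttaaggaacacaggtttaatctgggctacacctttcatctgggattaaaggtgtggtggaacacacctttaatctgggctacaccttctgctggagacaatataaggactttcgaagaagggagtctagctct
Pemt, second start: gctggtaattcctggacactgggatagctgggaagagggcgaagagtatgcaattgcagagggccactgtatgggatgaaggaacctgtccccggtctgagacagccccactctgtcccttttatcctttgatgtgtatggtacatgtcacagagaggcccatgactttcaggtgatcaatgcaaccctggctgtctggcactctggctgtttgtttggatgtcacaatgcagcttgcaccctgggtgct
Mat2a: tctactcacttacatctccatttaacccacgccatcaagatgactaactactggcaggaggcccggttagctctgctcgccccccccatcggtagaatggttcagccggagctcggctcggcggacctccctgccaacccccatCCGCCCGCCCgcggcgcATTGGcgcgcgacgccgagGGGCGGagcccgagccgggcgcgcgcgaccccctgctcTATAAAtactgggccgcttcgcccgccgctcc
Bhmt: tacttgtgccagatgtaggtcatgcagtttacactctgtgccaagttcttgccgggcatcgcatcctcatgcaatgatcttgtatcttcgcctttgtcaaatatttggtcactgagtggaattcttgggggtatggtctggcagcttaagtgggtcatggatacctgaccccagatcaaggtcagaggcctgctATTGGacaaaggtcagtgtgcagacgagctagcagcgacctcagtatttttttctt

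The Chpt1 window held 5 GC boxes and 1 CCAAT box, with 23 CpG dinucleotides, more than in 86.7% of 32851 promoters of the same length. Mat2a also had a CpG-rich window, with 29 CpG, 3 GC boxes, 1 CCAAT box and a TATA box that began 32 bases before the start. The first Pemt window had 1 CpG and 1 CCAAT box, and the second had 2 CpG and no match. Bhmt had 5 CpG and 1 CCAAT box. Over all 32851 promoters, 32.7% held GGGCGG, 33.8% CCAAT, 12.4% TATAAA, 6.02% CACGTG, 9.56% TTGCNNAA and 0.384% CAAAGTCCA. These matches describe the letters of the windows and no more. RefSeq promoters were matched for 8 of the 10 members, and Mat1a and Cth had no entry.

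Compared per kilobase of merged exon sequence, the members differed widely in level. In the CCl4_PTH group the order of mean CPM per kilobase was Mat1a (550.2), Gnmt (426), Ahcy (239.8), Bhmt (183), Cth (47.2), Pemt (24.0), Cbs (20.9), Chpt1 (12.2), Mat2a (10.5) and Mat2b (3.35). Mat1a and Gnmt overlapped there in their library values, as did Ahcy and Bhmt, Pemt and Cbs, and Chpt1 and Mat2a. In CCl4 livers Chpt1, at 5.40 CPM per kilobase, lay below Mat2a at 9.56 with no overlap between the 2 genes. In control livers Chpt1, at 15.0, overlapped with Mat2a at 11.1 and had the higher mean. Mat2b was the lowest member in each of the 3 groups, with no library at the level of the next member. Mat1a encodes the adenosyltransferase of the adult hepatocyte and Mat2a that of fetal liver and of other tissues, and Mat1a exceeded Mat2a in every library. The ratio of their levels per kilobase ran from 22.1 to 127 with a median of 38.3 in CCl4_PTH libraries, from 27.2 to 66.9 with a median of 43.8 in CCl4 libraries, and from 27.9 to 64.2 with a median of 47.8 in control libraries. The ratio of 127 was that of CCl4_PTH library 1, and the next highest CCl4_PTH library, 7, had 44.2. The 3 ranges overlapped, and the ratio was described without a test.

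**Figure D1:**
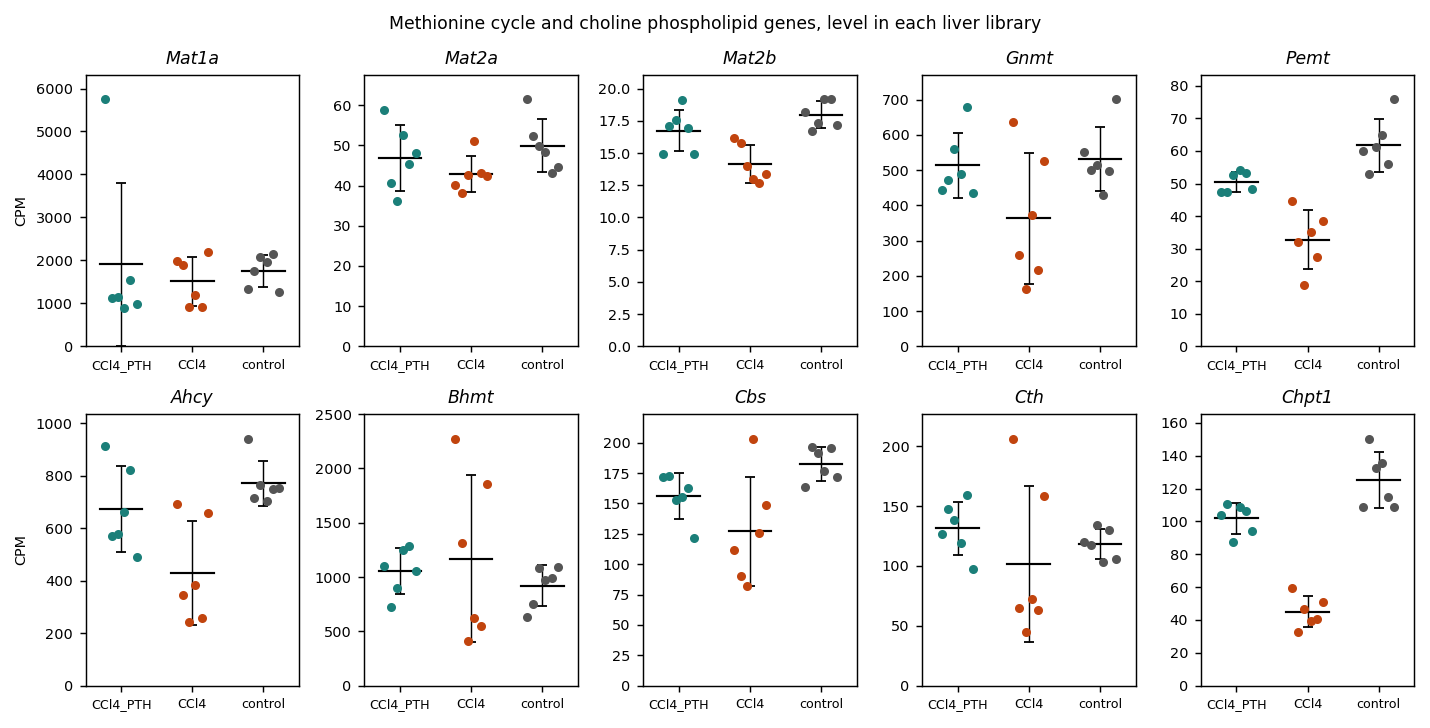
Level of each of the 10 genes in CPM (linear axes from 0, a scale of its own for each gene) in the 6 CCl4_PTH, 6 CCl4 and 6 control libraries, with points for libraries, horizontal bars for the group mean and whiskers for 1 SD. Chpt1 and Pemt in CCl4 livers lie below all libraries of both other groups, and Mat1a in CCl4_PTH library 1 reaches 5751 CPM.

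The first comparison, CCl4 livers against control livers, asks how the genes stood after repeated CCl4 at week 22. Of the 10 genes, 5 were lower after CCl4 (Chpt1, Pemt, Ahcy, Cbs and Mat2b), none was higher, and 5 did not pass the test (Gnmt, Mat2a, Bhmt, Cth and Mat1a). A gene was called at an adjusted p under 0.05 in edgeR's quasi-likelihood test with Benjamini-Hochberg adjustment over 21840 genes, by which 47.4% of all genes were called, 26.3% higher and 21.2% lower. The libraries of the 2 groups did not overlap for 4 members, Chpt1, Pemt, Ahcy and Mat2b, and for 26.1% of all genes. The median log2 fold change was −0.43 over the members and 0.05 over all genes tested. In pieces of whole liver, fewer cells of a type and less RNA per cell cannot be told apart. The 7 hepatocyte markers summed to 22818 to 55093 CPM in CCl4 livers and 50120 to 63594 CPM in control livers, with 4 of 7 lower (median log2 fold change −0.58). Alb was the largest term of these sums, with means of 25039 CPM in CCl4 and 36432 CPM in control livers. It was not called (log2 fold change −0.54, adjusted p = 0.0878), and neither were Ahsg (0.35) and Fga (0.33). The part of the hepatocyte markers in the falls of the members was not tested.

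Among the enzymes that make choline phospholipids, both members fell after CCl4. Chpt1, cholinephosphotransferase, joins CDP-choline to diacylglycerol in the last step of the CDP-choline route (chr10:88452745-88504073). It had 32.6 CPM in the lowest, 43.8 CPM in the median and 59.7 CPM in the highest CCl4 liver, against 109, 124 and 150.5 CPM in control livers. Every CCl4 liver thus lay below every control liver, with CCl4 libraries 1 and 8 the highest of their group. The level was 2.78-fold lower after CCl4 (log2 fold change −1.48 ± 0.13 SE, adjusted p = 1.03e-07). Pemt, phosphatidylethanolamine N-methyltransferase, makes phosphatidylcholine by successive methylations of phosphatidylethanolamine (chr11:59970614-60046489). Its lowest, median and highest levels were 19.0, 33.6 and 44.6 CPM in CCl4 livers and 52.8, 60.6 and 75.9 CPM in control livers. These ranges did not overlap either, CCl4 library 4 being the lowest of all. Pemt was 1.88-fold lower after CCl4 (log2 fold change −0.91 ± 0.15, adjusted p = 5.54e-05).

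Ahcy fell after CCl4 and Gnmt did not pass the test. Ahcy, adenosylhomocysteinase, splits S-adenosylhomocysteine into homocysteine and adenosine (chr2:155059310-155074497). It had 240.5, 365 and 691 CPM in the lowest, median and highest CCl4 liver, against 704, 749.6 and 942 CPM in control livers. The groups were apart by a narrow margin, since CCl4 libraries 1 and 8, at 691 and 657 CPM, came close to the control range while the other 4 lay at 240.5 to 384 CPM. The fall was 1.79-fold (log2 fold change −0.84 ± 0.24, adjusted p = 0.00732). Gnmt, glycine N-methyltransferase, methylates glycine and is known as a buffer of the liver's S-adenosylmethionine (chr17:46725664-46729168). Gnmt levels ran over 162, 317 and 637 CPM in CCl4 livers and 429, 507 and 701 CPM in control livers. Again CCl4 libraries 1 and 8 lay within the control range and the other 4 below it. Its log2 fold change of −0.55 ± 0.26 had an adjusted p of 0.0876, and without CCl4 library 1 it was −0.82 (adjusted p = 0.00912) and without CCl4 library 8 it was −0.72 (adjusted p = 0.0344).

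Of the transsulfuration genes, Cbs fell and Cth did not pass the test. Cbs, cystathionine beta-synthase, joins homocysteine to serine (chr17:31608894-31637238). Its lowest, median and highest levels were 81.9, 119 and 203 CPM in CCl4 livers and 163, 184 and 197 CPM in control livers. CCl4 library 5 was the highest of all 12, and the other 5 CCl4 libraries lay below every control. Cbs was 1.44-fold lower after CCl4 (log2 fold change −0.52 ± 0.17, adjusted p = 0.0159). Cth, cystathionine gamma-lyase, splits cystathionine to give cysteine (chr3:157894248-157925077). It had 45.0, 68.4 and 207 CPM in CCl4 livers and 103, 119 and 134 CPM in control livers. CCl4 libraries 1 and 8 lay above every control library and the other 4 below every one, and the log2 fold change of −0.22 ± 0.28 did not pass (adjusted p = 0.552). Without CCl4 library 1 it was −0.58 (adjusted p = 0.0499). Bhmt, betaine-homocysteine methyltransferase, returns a methyl group from betaine to homocysteine (chr13:93616675-93637961) and did not pass the test. Its lowest, median and highest levels were 408, 966 and 2276 CPM in CCl4 livers and 630.3, 980.0 and 1089 CPM in control livers. CCl4 libraries 1, 2 and 8 lay above every control and libraries 4, 5 and 7 below every control. Its log2 fold change was 0.35 ± 0.34 (adjusted p = 0.421).

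Of the adenosyltransferase genes only Mat2b, the regulatory subunit that binds the Mat2a enzyme, was called (chr11:40679314-40695203). Its levels were 12.7, 13.7 and 16.1 CPM in CCl4 livers and 16.7, 17.8 and 19.2 CPM in control livers. The groups did not overlap, but the fall was the smallest of the 5 called, 1.27-fold (log2 fold change −0.34 ± 0.08, adjusted p = 0.00189). Mat2a (chr6:72432799-72439558) had 38.3, 42.4 and 51.1 CPM in CCl4 livers and 43.0, 49.1 and 61.5 CPM in control livers. Its groups overlapped and its log2 fold change of −0.22 ± 0.11 had an adjusted p of 0.121, which came to 0.0299 without CCl4 library 5 (log2 fold change −0.31) and 0.0472 without control library 5 (−0.29). Mat1a (chr14:41105035-41124412) ran over 906, 1540.2 and 2185 CPM in CCl4 livers and 1269, 1862 and 2137 CPM in control livers. CCl4 libraries 1, 2 and 8 lay within or just above the control range and libraries 4, 5 and 7 below it, and the log2 fold change was −0.22 ± 0.40 (adjusted p = 0.688). With library sizes alone in place of TMM factors, the median of all genes moved to 0.63, Mat1a, Mat2a, Mat2b, Cbs and Cth changed sign (0.36, 0.34, 0.23, 0.03 and 0.32), Bhmt was called higher (0.90, adjusted p = 0.0176), and the calls of Mat2b, Ahcy and Cbs were lost. Relative to that median, Chpt1 was then at −1.499, Pemt at −1.001, Ahcy at −0.95, Cbs at −0.60, Mat2b at −0.39 and Bhmt at 0.28.

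**Figure D2:**
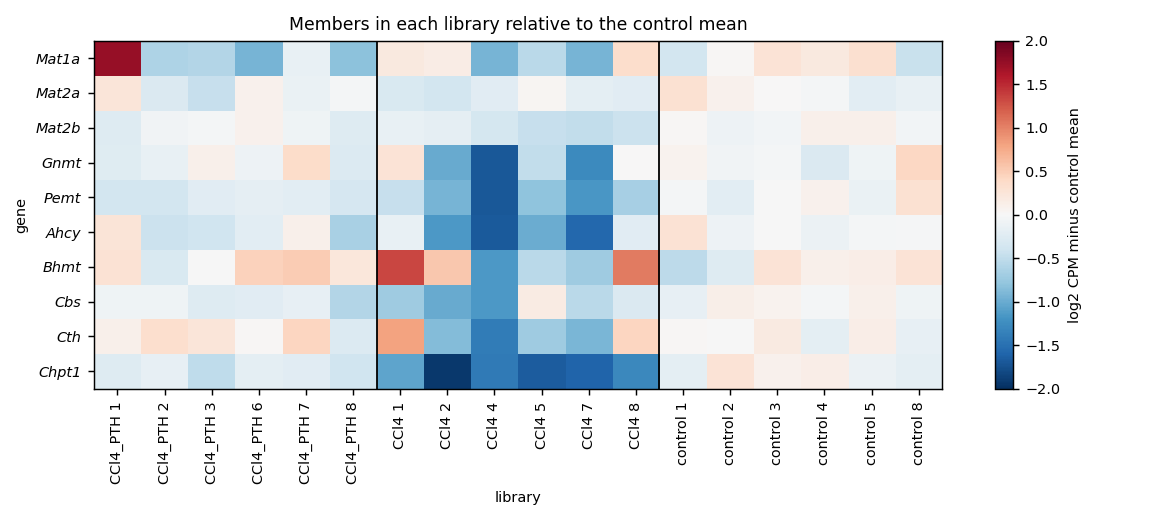
Level of each of the 10 genes (rows) in each library (columns, CCl4_PTH, CCl4 and control from left to right) as log2 CPM minus the mean log2 CPM of the control libraries, with blue for lower and red for higher. In CCl4 libraries 4 and 7 the genes Gnmt, Pemt, Ahcy, Cth and Chpt1 are all low, while in CCl4 libraries 1 and 8 Bhmt and Cth lie above the control mean.

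The SD of log2 CPM was larger in CCl4 livers than in both other groups for each member except Mat1a and Mat2a. Mat1a had SDs of 1.0002 in CCl4_PTH, 0.58 in CCl4 and 0.33 in control livers, the first with CCl4_PTH library 1 and its 5751 CPM included. Mat2a had SDs of 0.25 in CCl4_PTH, 0.14 in CCl4 and 0.18 in control livers. The median SD of log2 CPM over the 10 members was 0.25 in CCl4_PTH, 0.53 in CCl4 and 0.18 in control livers, beside 0.35, 0.39 and 0.35 over all 21840 genes. Bhmt had an SD of 1.02 in CCl4 livers, larger than that of 90.2% of genes, and Cth an SD of 0.86, larger than that of 85.8%. Mat2a and Mat2b had SDs of 0.14 and 0.15 there, larger than those of 9.92% and 10.5% of genes. CCl4 libraries 1 and 8 were the highest of the group for Chpt1, Pemt, Ahcy, Gnmt, Bhmt and Cth. The hepatocyte markers summed to 46229, 31876, 22818, 55051, 34788 and 55093 CPM in CCl4 libraries 1, 2, 4, 5, 7 and 8, and their part in the spread of the members was not tested.

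The second comparison, CCl4_PTH livers against CCl4 livers, asks how the genes stood in injured livers given PTH. Chpt1 and Pemt were higher with PTH, none of the 10 genes was lower, and 8 did not pass the test. Of all genes 12.1% were called in this comparison, 7.1% higher and 4.95% lower. The libraries of the 2 groups did not overlap for 2 members, the same Chpt1 and Pemt, and for 4.07% of all genes. The median log2 fold change was 0.36 over the members and −0.03 over all genes tested. This comparison shares the CCl4 libraries with the first, so the values of the 2 are given side by side only. Without CCl4_PTH library 1 there were 3 members called, Mat2b being added, and without CCl4 library 1 there were 6, with Mat2b, Gnmt, Ahcy and Cth added. The number of all genes called moved as well, from 1509 to 3854 with each library left out in turn, against 2632 with every library.

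Chpt1 had 87.3 CPM in the lowest, 105 CPM in the median and 111 CPM in the highest CCl4_PTH liver, against 32.6, 43.8 and 59.7 CPM in CCl4 livers. The lowest CCl4_PTH liver thus exceeded the highest CCl4 liver, and the 6 CCl4_PTH livers lay close together. The level was 2.26-fold higher with PTH (log2 fold change 1.18 ± 0.13, adjusted p = 4.21e-05), and the call held without each library in turn. Pemt had 47.3, 50.5 and 54.2 CPM in CCl4_PTH livers and 19.0, 33.6 and 44.6 CPM in CCl4 livers. Its CCl4_PTH livers varied little, with an SD of log2 CPM larger than that of only 3.54% of genes, and none reached down to the CCl4 range. Pemt was 1.54-fold higher with PTH (log2 fold change 0.62 ± 0.15, adjusted p = 0.0111), and its adjusted p ran from 0.00270 to 0.0311 without each library in turn.

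Among the 8 genes that did not pass, Mat2b had 14.9, 16.997 and 19.1 CPM in the lowest, median and highest CCl4_PTH liver and 12.7, 13.7 and 16.1 CPM in CCl4 livers. Its log2 fold change of 0.24 ± 0.08 had an adjusted p of 0.0585, which was 0.0184 without CCl4_PTH library 1, 0.0433 without CCl4_PTH library 8, 0.0201 without CCl4 library 1 and 0.0424 without CCl4 library 2. Ahcy ran over 489, 621 and 912 CPM in CCl4_PTH livers and 240.5, 365 and 691 CPM in CCl4 livers, with a log2 fold change of 0.65 ± 0.24 (adjusted p = 0.0847). Here the CCl4_PTH livers overlapped only CCl4 libraries 1 and 8. The adjusted p of Ahcy was 0.0186 without CCl4 library 1 and 0.0274 without CCl4 library 8. Gnmt had 436, 481 and 680.0 CPM in CCl4_PTH livers and 162, 317 and 637 CPM in CCl4 livers, a log2 fold change of 0.50 ± 0.26 (adjusted p = 0.220, and 0.0418 without CCl4 library 1). Like Ahcy, it overlapped in CCl4 libraries 1 and 8 alone.

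Cbs had 122, 159 and 172 CPM in CCl4_PTH livers and 81.9, 119 and 203 CPM in CCl4 livers. CCl4 library 5 was again the one above the rest, and the log2 fold change of 0.30 ± 0.17 had an adjusted p of 0.273, or 0.0300 without that library. Cth had 97.7, 133 and 159.6 CPM in CCl4_PTH livers and 45.0, 68.4 and 207 CPM in CCl4 livers. The CCl4_PTH livers fell in the gap between the 2 high and the 4 low CCl4 libraries or, for library 7, just above the lower of the 2 high ones. Its log2 fold change was 0.37 ± 0.28 (adjusted p = 0.437, and 0.0490 without CCl4 library 1). Bhmt had 728, 1083 and 1287 CPM in CCl4_PTH livers and 408, 966 and 2276 CPM in CCl4 livers. All CCl4_PTH livers lay inside the CCl4 range, below its 3 high and above its 3 low libraries, and the log2 fold change of −0.15 ± 0.34 (adjusted p = 0.824) turned to 0.16 without CCl4 library 1 and to 0.04 without CCl4 library 8.

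Mat2a had 36.1, 46.7 and 58.7 CPM in CCl4_PTH livers and 38.3, 42.4 and 51.1 CPM in CCl4 livers, a log2 fold change of 0.13 ± 0.11 (adjusted p = 0.511). Mat1a had 900.3, 1135 and 5751 CPM in CCl4_PTH livers and 906, 1540.2 and 2185 CPM in CCl4 livers. Library 1 alone made the CCl4_PTH mean the higher of the 2, the other 5 libraries lying at 900.3 to 1548 CPM. The log2 fold change of Mat1a was 0.34 ± 0.40 with that library (adjusted p = 0.650) and −0.39 without it (adjusted p = 0.326).

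The third comparison, CCl4_PTH livers against control livers, shares its CCl4_PTH libraries with the second and its control libraries with the first. None of the 10 genes was called, while 27.7% of all genes were, 17.4% higher and 10.3% lower. DESeq2 also called none, with 7109 of all genes called. In the edgeR test 1 member, Chpt1, had an unadjusted p under 0.05. No member had groups that did not overlap, against 14.5% of all genes. The median log2 fold change was −0.10 over the members and 0.04 over all genes. Chpt1 had 87.3, 105 and 111 CPM in CCl4_PTH livers against 109, 124 and 150.5 CPM in control livers, so that the groups met at about 109 CPM. Its log2 fold change was −0.30 ± 0.13 (95% interval −0.55 to −0.05, adjusted p = 0.0877). Pemt, at 47.3, 50.5 and 54.2 CPM against 52.8, 60.6 and 75.9 CPM in control livers, differed by −0.29 ± 0.15 (95% interval −0.58 to −0.003, adjusted p = 0.150). That interval leaves out 0 although the unadjusted p of the F test was 0.0619. The intervals use the normal distribution and are narrower than those of the F test. For Ahcy the interval ran from −0.67 to 0.27 and for Cbs from −0.56 to 0.11. For Gnmt it ran from −0.56 to 0.46 and for Mat2b from −0.26 to 0.06. Each of these holds 0 as well as values on both sides of it. The SEs come from the fit of all 3 groups together, so they also draw on the wider spread of these genes in CCl4 livers. Mat1a, at 0.12 ± 0.40, turned to −0.64 without CCl4_PTH library 1 (adjusted p = 0.0685). In a fit of only these 2 groups Chpt1 and Pemt were called lower with PTH than in control livers (−0.29 and −0.28, adjusted p = 0.0425 and 0.0255). With library sizes alone the median of all genes moved to 0.51 and Chpt1 and Pemt changed sign (0.21 and 0.18), standing at −0.30 and −0.33 relative to that median.

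**Figure D3:**
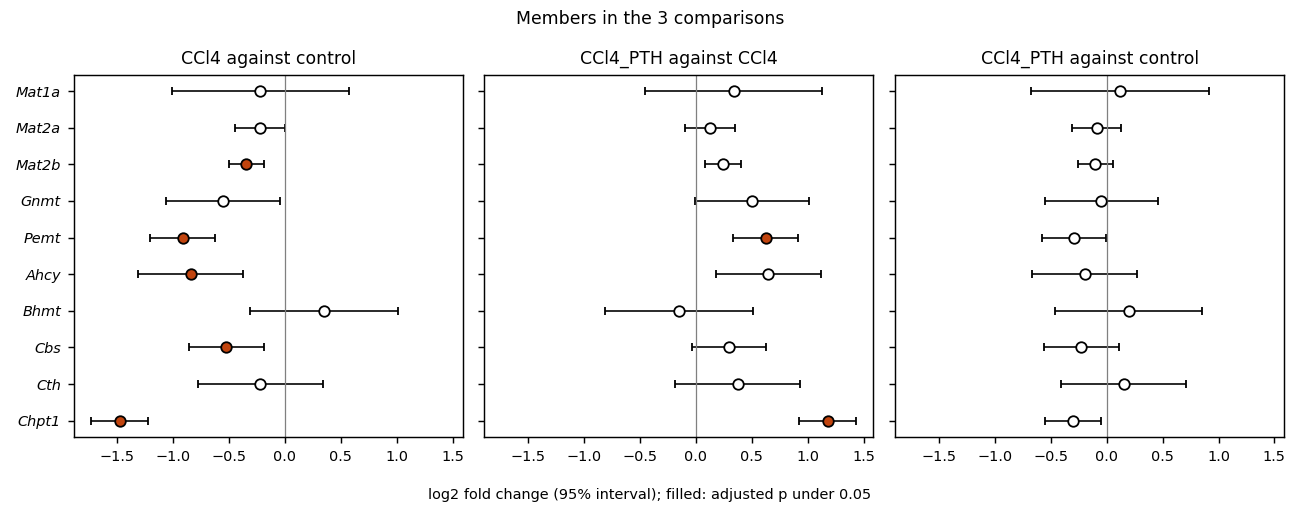
Log2 fold change of each of the 10 genes in the 3 comparisons, with 95% intervals from the normal distribution and filled points for an adjusted p under 0.05. The 5 filled points of CCl4 against control lie left of 0, the 2 filled points of CCl4_PTH against CCl4 (Chpt1 and Pemt) right of 0, and CCl4_PTH against control has none.

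The other genes of the pathway were taken from 7 lists with 81 genes in all, each of which passed the filter. After CCl4, 39 were lower than in control livers, 19 were higher and 23 did not pass, against 21.2% lower and 26.3% higher of all genes. Their median log2 fold change was −0.27 beside 0.05 over all genes. With library sizes alone 11 were lower and 35 higher, and 51 of the 81 lay below the median of all genes, against 50 with TMM factors. The 5 genes of choline and dimethylglycine oxidation, which turn choline into betaine and glycine, were all lower, with a median of −1.05. Dmgdh, dimethylglycine dehydrogenase, had median levels of 117 CPM in CCl4 livers and 277 CPM in control livers (log2 fold change −1.21 ± 0.20, adjusted p = 6.96e-05). Chdh, the choline dehydrogenase that starts the route, had medians of 111 CPM in CCl4 livers and 206 CPM in control livers (−0.85 ± 0.16, adjusted p = 0.000200). In folate metabolism and remethylation 7 of 15 genes were lower and 4 higher. The higher ones included Mthfd1l, the mitochondrial formate-producing enzyme, with medians of 6.02 CPM in CCl4 livers and 1.90 CPM in control livers (1.86 ± 0.29, adjusted p = 4.20e-05).

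Downstream of Cbs and Cth, 8 of 12 genes of cysteine, taurine, sulfide and glutathione metabolism were lower after CCl4 and 1 was higher. Csad, which makes the taurine precursor hypotaurine, had medians of 32.2 CPM in CCl4 livers and 144 CPM in control livers (−2.07 ± 0.31, adjusted p = 2.98e-05), and Tst, a sulfur transferase of mitochondria, 31.2 CPM and 62.6 CPM in the same order (−1.05 ± 0.16, adjusted p = 2.51e-05). Around Chpt1 and Pemt, 9 of 19 genes of choline and ethanolamine phospholipid synthesis were lower and 6 higher. Ptdss1, a phosphatidylserine synthase, was among the lower, with 14.5 CPM in CCl4 livers and 27.0 CPM in control livers (−0.85 ± 0.10, adjusted p = 2.63e-06), and Slc44a2, a choline transporter-like protein, among the higher, with 15.8 CPM in CCl4 livers and 7.01 CPM in control livers (1.36 ± 0.15, adjusted p = 9.16e-07). Among polyamine and methionine salvage genes 5 of 11 were higher and 2 lower. Sat1, which acetylates polyamines for export and breakdown, had medians of 52.1 CPM in CCl4 livers and 25.7 CPM in control livers (0.92 ± 0.09, adjusted p = 2.50e-07), and Adi1, a late enzyme of methionine salvage, 30.2 CPM in CCl4 livers and 62.2 CPM in control livers (−0.94 ± 0.14, adjusted p = 3.53e-05).

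Of 16 other users of S-adenosylmethionine, 6 were lower after CCl4 and 3 higher, against 21.2% lower and 26.3% higher of all genes. Dnmt3b, a DNA methyltransferase, was low throughout but higher after CCl4, at 2.02 CPM against 0.720 CPM in control livers (1.36 ± 0.24, adjusted p = 0.000143). Of the 3 genes of adenosylhomocysteine and adenosine, Ahcyl1, an Ahcy-like protein, was lower at 56.6 CPM in CCl4 livers and 68.4 CPM in control livers (−0.32 ± 0.08, adjusted p = 0.00192), as was Adk, the adenosine kinase that removes the other product of Ahcy, at 153 CPM in CCl4 livers and 206 CPM in control livers (−0.55 ± 0.16, adjusted p = 0.00847).

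With PTH, 22 of the 81 pathway genes were higher than in CCl4 livers, 5 were lower and 54 did not pass, against 7.1% higher and 4.95% lower of all genes. Their median was 0.25 beside −0.03 over all genes. Without CCl4_PTH library 1, 31 were higher and 10 lower. The number called also moved to 41 without CCl4 library 1, to 14 without CCl4_PTH library 7, to 15 without CCl4 library 4, and to 17 without CCl4_PTH library 6, CCl4 library 2 or CCl4 library 7. Over such fits, with each library left out in turn, all genes called ran from 1509 to 3854. With library sizes alone 9 pathway genes were higher and 5 lower, beside 476 and 622 of all genes. Of the 39 genes lower after CCl4, 21 were higher with PTH, and of the 19 higher after CCl4, 5 were lower with PTH, in comparisons that share the CCl4 libraries. The same counts over all genes are not given here, so these do not set the pathway apart from other genes. In choline and ethanolamine phospholipid synthesis 6 of 19 were higher and 1 lower. Pcyt2, the enzyme that makes CDP-ethanolamine, had 147, 169 and 183 CPM in the lowest, median and highest CCl4_PTH liver and 60.5, 94.4 and 105 CPM in CCl4 livers (0.92 ± 0.15, adjusted p = 0.00121). Its groups did not overlap, and the same gene was lower after CCl4 than in control livers (−1.21 ± 0.15, adjusted p = 3.41e-06). Lpcat3, which remodels phosphatidylcholine with polyunsaturated chains, had medians of 68.6 CPM in CCl4_PTH livers and 40.7 CPM in CCl4 livers (0.70 ± 0.12, adjusted p = 0.00196).

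In cysteine, taurine, sulfide and glutathione metabolism 5 of 12 genes were higher with PTH and none lower. Suox, the sulfite oxidase that ends the breakdown of cysteine sulfur, had 36.9, 49.3 and 60.0 CPM in CCl4_PTH livers and 10.4, 20.1 and 35.1 CPM in CCl4 livers (1.18 ± 0.23, adjusted p = 0.00454), again without overlap. Tst had medians of 53.3 CPM in CCl4_PTH livers and 31.2 CPM in CCl4 livers (0.71 ± 0.16, adjusted p = 0.00750). Of the choline oxidation genes, Dmgdh at 201 CPM in CCl4_PTH livers and 117 CPM in CCl4 livers (0.82 ± 0.20, adjusted p = 0.0129) and Aldh7a1, the betaine aldehyde dehydrogenase, at 260.4 CPM and 136 CPM in the same order (0.66 ± 0.20, adjusted p = 0.0384) were higher, and the other 3 did not pass. Without CCl4_PTH library 1 all 5 were called higher. In folate metabolism 2 of 15 were higher, Aldh1l1 at 665 CPM in CCl4_PTH livers and 249 CPM in CCl4 livers (1.07 ± 0.28, adjusted p = 0.0173) and Mthfd1 at 126 CPM and 67.9 CPM in the same order (0.64 ± 0.19, adjusted p = 0.0333). Both are enzymes of cytosolic one-carbon folates.

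Polyamine and methionine salvage was the list with the most genes lower with PTH, 3 of 11, with 1 higher. Srm, spermidine synthase, had 4.48, 6.00 and 7.93 CPM in CCl4_PTH livers and 8.88, 13.2 and 13.8 CPM in CCl4 livers (−1.02 ± 0.15, adjusted p = 0.000684). Sat1 had 31.5, 33.8 and 41.1 CPM in CCl4_PTH livers and 44.1, 52.1 and 54.3 CPM in CCl4 livers (−0.50 ± 0.09, adjusted p = 0.00199). Neither gene had overlapping groups. Among other users of S-adenosylmethionine 4 of 16 were higher and 1 lower, with Hnmt, histamine N-methyltransferase, at a median of 13.4 CPM in CCl4_PTH livers and 4.88 CPM in CCl4 livers (1.18 ± 0.31, adjusted p = 0.0202). Adk at 199 CPM in CCl4_PTH livers and 153 CPM in CCl4 livers (0.55 ± 0.16, adjusted p = 0.0321) and Ahcyl1 at 65.6 CPM and 56.6 CPM in the same order (0.25 ± 0.08, adjusted p = 0.0370) were higher as well. Between CCl4_PTH and control livers 14 of the 81 were higher with PTH, 5 lower and 62 did not pass. Of all genes 17.4% were higher and 10.3% lower in that comparison.

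**Figure D4:**
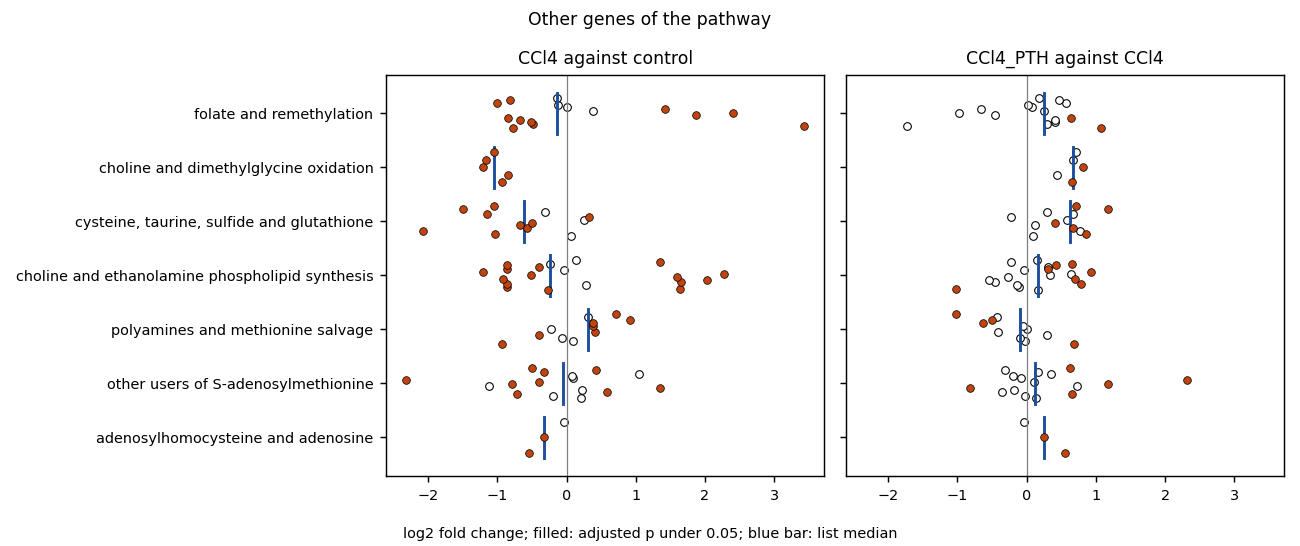
Log2 fold change of the 81 other pathway genes by list (rows) in CCl4 against control and CCl4_PTH against CCl4, with filled points for an adjusted p under 0.05 and a blue bar for the list median. All 5 choline and dimethylglycine oxidation genes are filled and left of 0 after CCl4, and the folate list holds genes that moved in both directions.

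Other cell type markers moved with the groups as well. The 7 pericentral hepatocyte markers summed to 1356 to 3394 CPM in CCl4_PTH, 276 to 893 CPM in CCl4 and 4535 to 8118 CPM in control livers. Of these, 6 of 7 were lower after CCl4 than in control livers (median log2 fold change −3.39). Cyp2e1 was the largest term of the sums in those 2 groups, with means of 261 CPM in CCl4 and 4522 CPM in control livers. With PTH, 5 of 7 were higher than in CCl4 livers (2.22) and 4 of 7 lower than in control livers (−1.17). The 7 periportal markers summed to 4852 to 7655 CPM in CCl4_PTH, 3275 to 6848 CPM in CCl4 and 4551 to 7546 CPM in control livers. None of the periportal markers was called after CCl4 (median −0.38) or with PTH against CCl4 livers (0.52), and 1 was higher with PTH than in control livers. After CCl4, 6 of 6 cholangiocyte, 6 of 8 stellate and fibroblast, 6 of 8 macrophage, 5 of 5 tested neutrophil, 6 of 7 T and NK cell, 6 of 6 B and plasma cell, 3 of 6 endothelial and 6 of 6 dividing cell markers were higher, and 2 endothelial markers were lower. With PTH 1 macrophage and 1 endothelial marker were higher than in CCl4 livers, 2 macrophage and 1 dividing cell marker were lower, and 0 of the 7 hepatocyte markers were called. Stellate and fibroblast markers summed to 543 to 1041 CPM in CCl4_PTH, 531 to 927 CPM in CCl4 and 255 to 321 CPM in control livers, and macrophage markers to 217 to 418, 296 to 639 and 113 to 182 CPM in the same order. The 1041 and 217 CPM were those of CCl4_PTH library 1, the next CCl4_PTH values being 853 and 250 CPM. Ly6g and Mmp8 were at 0 in every control library. The part of these cell types in the values of the members was not tested.

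For the 4 members with the smallest p after CCl4, the genes most like them over all 18 libraries were found by the root mean square difference of log2 CPM, each gene centred on its own mean, among 14017 genes with at least 1 CPM. Nearest to Chpt1 was Scp2, a sterol carrier protein, at 0.25, followed by Bag4 (0.26) and Mgst1 (0.26), while Chpt1 itself varied by 0.68 around its mean. Pemt lay nearest to Serpinc1, which encodes antithrombin, at 0.11, then Adh5 (0.12) and Ebp (0.12), beside its own variation of 0.47. Nearest to Mat2b, which varied by 0.19, were Xkr8 (0.099), Rnpepl1 (0.10) and Ube2b (0.10). For Ahcy, which varied by 0.57, the nearest gene was Gm4737 (0.12), ahead of Dpyd (0.18) and Plg (0.20).

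Gm4737 is a near-identical copy of Ahcy, with 99.7% identity over 2083 bases, and averaged 223 CPM in CCl4_PTH, 155 CPM in CCl4 and 270.5 CPM in control livers, so that reads of the 2 genes may be divided between them. Gm9826 (99.2% over 1299 bases) and Gm5638 (94.5% over 1128 bases) are further copies of Ahcy, with means of 11.8 to 25.7 CPM and under 0.1 CPM. Bhmt has the copies Gm5096 (99.4% over 1869 bases, 82.6 to 96.8 CPM) and Bhmt-ps1 (98.9% over 1224 bases, 10.4 to 14.0 CPM), and Mat2a has Gm9523 (95.2% over 1065 bases, 0.168 to 0.321 CPM). With the counts of the copies added, Ahcy was at −0.84 after CCl4 (adjusted p = 0.00749) and at 0.61 with PTH (adjusted p = 0.103), and no member gained or lost a call. Exons of Chpt1, Bhmt and Mat2a overlap the antisense genes Sycp3, Gm15622 and Particl, and among the pathway genes named here those of Aldh1l1, Aldh7a1, Chdh, Csad, Dmgdh, Lpcat3, Mthfd1 and Ptdss1 overlap other genes, whose reads cannot be told apart because the labels do not state the use of strand.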

How the data were processed

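Long RNA of liver was extracted with TRIzol, depleted of ribosomal RNA, prepared with a NEBNext kit and read as paired ends on an Illumina instrument, per the labels' protocols. The submitters' processing notes list GRCm38 and, in no order, StringTie 2.1.5, HISAT2 2.2.1, Bowtie2 2.5.1, FastQC 0.11.9 and cutadapt 4.2. Counter, annotation and strand setting are not stated in what was used here. The authors deposited estimated counts for 54752 genes and 18 libraries (unit read from identifiers and values); rounding changed 0 of them.

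GENCODE M21 held 54723 of the identifiers. edgeR 4.0.16 in R 4.3.3 (filterByExpr with minimum count 10, TMM, robust quasi-likelihood F test, 3 groups together, no block) tested 21840 genes, with Benjamini-Hochberg adjustment over all and a threshold of 0.05. SE is the absolute log2 fold change over the root of F. Libraries of a group differed beyond sampling noise (chi-square per gene at least 57.9 in 45 pairs) and counted separately. The fit was tested on simulated data with 200 changed genes and the same dispersion in every gene and group. That run does not show how the fit handles groups of unequal spread, as these are. Members had 879 (Mat2b) to 675744 (Mat1a) counts per library.

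Alternatives were DESeq2 1.42.0, its size factors, library sizes alone, 357 ribosomal RNA loci removed, no filter, a replicate block, fits of 2 groups, libraries left out, and counts of near-identical copies (at least 90% over 500 bases by BLAST) added, the last chosen after seeing the data, as were all alternatives for the pathway counts. Libraries with the same replicate number were not alike (correlation of deviations −0.209 to 0.0833 over 13 pairs). This cannot settle whether the numbers pair animals, because a pairing may leave little trace.

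The members, the 7 pathway lists, 11 marker lists (75 symbols, Tf not used) and the tests were chosen with earlier results of these data known. From each pathway list the text names the 2 genes with the smallest p in CCl4 against control and in CCl4_PTH against CCl4, some of which are not reported here, and nearest genes are given for the 4 members with the smallest p in CCl4 against control. Small and circular RNA libraries were not analysed here.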

Additional observations from a re-analysis of the deposited data

Results flagged for a closer look

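Each group of 6 libraries was searched, gene by gene, for a highest or lowest value that stood away from the rest by more than Dixon's 95% critical value, which chance exceeds in about 1 in 20 groups. Of 30 groups, 3 did so. Mat1a reached 5751 CPM in CCl4_PTH library 1, against 900.3 to 1548 CPM in the other 5 CCl4_PTH libraries. Ahcy was at 942 CPM in control library 1, against 704 to 763 CPM in the other 5 controls. Cbs was at 122 CPM in CCl4_PTH library 8, against 153 to 172 CPM in the other 5 CCl4_PTH libraries.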

How the results depend on the processing

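Of 630 values of single members under alternatives, 586 kept their direction and their side of the threshold. With library sizes alone, members called were 3 after CCl4, beside 12339 of all genes. Between CCl4_PTH and control 1 member was called (Mat2b, 0.37, adjusted p = 0.0413). Pathway genes called were 14 with PTH and 37 against control, and all genes called 1098 and 9917, in that order. Higher calls then made up 91.4% of calls after CCl4 (55.3% with TMM factors), 43.4% with PTH (58.9%) and 96.4% between CCl4_PTH and control (62.8%), with all-gene medians of 0.63, −0.13 and 0.51. Signs changed there for Mat1a 0.36, Mat2a 0.34, Mat2b 0.23, Cbs 0.029 and Cth 0.32 (CCl4 against control), and for Mat2a 0.38, Mat2b 0.37, Gnmt 0.41, Pemt 0.18, Ahcy 0.25, Cbs 0.27 and Chpt1 0.21 (CCl4_PTH against control); relative to the all-gene median, which moved with them, each kept its side. A replicate block is called for by no label, and 0 of 17 libraries correlated best with their own number, which does not settle whether the numbers pair animals. With that block, members called with PTH were 1 (Chpt1, with Pemt at 0.57 and an adjusted p of 0.178). Pathway genes called were 1 with PTH and 10 against control, and all genes called 84 and 3343 in the same order. Mat1a and Bhmt against control turned to −0.014 and −0.058. DESeq2 called 4 members with PTH (Mat2b and Ahcy added) and 3805 of all genes, against 2632 in the edgeR fit of all 3 groups. Against control, 2-group fits called 2 members and 5886 of all genes. Leaving out controls 1 and 8 called 1 member (Chpt1 −0.41) and 5774 of all genes, with Mat1a at −0.094 and Gnmt at 0.063. The fit of all 18 libraries called 6051 of all genes there, and the cause was not tested. With each library left out in turn, members called ran from 5 to 7 after CCl4, 2 to 6 with PTH and stayed at 0 against control. All genes called ran from 9335 to 10606, 1509 to 3854 and 5167 to 6326 in the same order, and pathway genes from 14 to 41 with PTH. Mat1a ran from −0.39 to 0.48 with PTH and −0.64 to 0.23 against control. Bhmt ran from −0.33 to 0.16 with PTH, and Gnmt from −0.14 to 0.027 against control.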
